A study of Cucumis sativus with 12 samples.

Results

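Cell wall glycoproteins of cucumber (Cucumis sativus) were followed in the stigma and style: arabinogalactan proteins, leucine-rich repeat extensins, proline-rich wall proteins and COBRA proteins. A gene belongs to the set when its deposited Swiss-Prot protein name contains arabinogalactan, extensin, proline-rich protein, proline-rich cell wall protein or COBRA and its counts over the 12 libraries sum to at least 30. The rule finds 50 of the 24345 genes in the table: 17 fasciclin-like arabinogalactan proteins (FLA), 9 other arabinogalactan genes (AGP), 8 leucine-rich repeat extensins (LRX), 7 proline-rich proteins (PRP) and 9 COBRA or COBRA-like genes (COBL). In all, 59 genes carry such a name. Of the 9 left out, 6 had no count in any library and the other 3 summed to 3, 13 and 19 counts, while the lowest sums inside the set were 39, 64 and 67 counts.

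RNA was sequenced from stigma and style collected at anthesis, the opening of the flower, in 4 genotypes with 3 biological replicates each. These were the double mutant CssptCsalc-/- (CssptCsalc), the single mutants Csspt-/- (Csspt) and Csalc-/- (Csalc), and wild type (WT). SPATULA and ALCATRAZ, the genes these mutants are named for, encode related bHLH transcription factors of carpel development. The labels give neither the nature of the alleles nor how many independent lines were used, so each genotype stands for the plants sampled here.

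Arabinogalactan proteins are secreted proteins whose proline residues are hydroxylated and then carry large arabinose and galactose side chains, and many are held to the plasma membrane by a glycosylphosphatidylinositol (GPI) anchor. They are abundant in the stigma and in the transmitting tract of the style, the tissue that pollen tubes cross, where they are known as part of the matrix on which the tubes grow. LRX proteins join a leucine-rich repeat domain to an extensin domain that is bound in the wall, and in Arabidopsis they bind peptides of the rapid alkalinization factor (RALF) family. Hybrid proline-rich proteins pair a proline-rich stretch with a cysteine-rich hydrophobic domain, and COBRA proteins are GPI-anchored proteins needed for ordered cellulose in expanding cells.

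The deposited domain annotation largely fits these names. A fasciclin domain was listed for 16 of the 17 FLA genes, a leucine-rich repeat for all 8 LRX genes and a COBRA domain for all 9 COBRA genes. Among the 7 proline-rich genes, 6 carried the hydrophobic seed protein domain that is typical of hybrid proline-rich proteins, and PRP4 (Csa2G263940) carried an Ole e 1 domain. The 9 AGP genes were more mixed. Of these, 4 were arabinogalactan peptides, which are very short GPI-anchored proteins, 2 had an Ole e 1 domain and 2 had no domain listed. The remaining gene, PECTIC ARABINOGALACTAN SYNTHESIS-RELATED (PAGR, Csa5G598020), encodes an O-fucosyltransferase-like enzyme that in Arabidopsis is needed for arabinogalactan side chains of pectin, so it is a member by its name only. A second deposited name, from the NR protein database, differed for some members. It was extensin-1 for PRP4, FLA10 for FLA8 (Csa6G076800) and COBRA-like 1 for COBRA (Csa4G129050). The Swiss-Prot names used here thus do not settle which member of a family a gene is.

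The libraries held 32155631 to 37986853 counts. Of the 12, Csalc replicate 3 stood apart: its log2 CPM values correlated with those of the other libraries at 0.810 to 0.856, against 0.974 to 0.985 within groups and 0.927 to 0.975 between groups for the other 11. All genotypes share 1 estimate of each gene's spread in the test. The common spread over all genes, as a biological coefficient of variation, came to 0.193 without this library and to 0.363 with it. Counts of called genes are therefore given without it and with it. For the carpel and style markers, 41 genes matched by name and 3 of them had no count in any library. Names searched included SPATULA, CRABS CLAW, HECATE and AGAMOUS, ignoring case. Any Agamous-like name is therefore taken too, and genes not particular to carpel or style can be in the list. Their summed level was 1078 to 1102 FPKM in CssptCsalc, 1098 to 1165 in Csspt, 986 to 1573 in Csalc and 1116 to 1132 in WT. The higher of 2 genes named SPATULA (Csa2G356640) had 13.2, 12.1 and 8.44 FPKM in CssptCsalc, 20.9, 19.98 and 18.9 in Csspt, 11.8, 12.2 and 5.87 in Csalc, and 21.0, 20.1 and 19.6 in WT. A mutation need not lower its own transcript, so these levels do not check the labels.

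In wild-type stigma and style, a few members carried most of the set's transcript. Levels are in FPKM, which the authors scaled for length and depth, and so may be compared between genes. FLA1 (Csa7G108300) was the only member above 100 FPKM, 13 others lay between 10 and 100, 16 between 1 and 10 and 20 below 1. The first gene held 21.5% of the summed WT level of the set, the first 5 held 52.4% and the first 10 held 78.8%. After FLA1 came a fasciclin-like gene, FLA17 (Csa3G783850), at 59.3 ± 0.880 FPKM in WT (SD, n = 3). COBRA (Csa4G129050) averaged 38.8 ± 3.77 FPKM, COBRA-like 7 (Csa3G165620) 35.8 ± 2.99 and the 14 kDa proline-rich protein DC2.15 (Csa3G026660) 33.6 ± 16.3. PAGR at 32.1 ± 0.631, FLA17 (Csa1G629740) at 31.7 ± 1.00 and FLA7 (Csa7G037510) at 29.6 ± 4.83 FPKM completed the first 8. From COBRA down to FLA7, the ranges of mean ± SD of neighbours in this order overlapped.

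**Figure D1:**
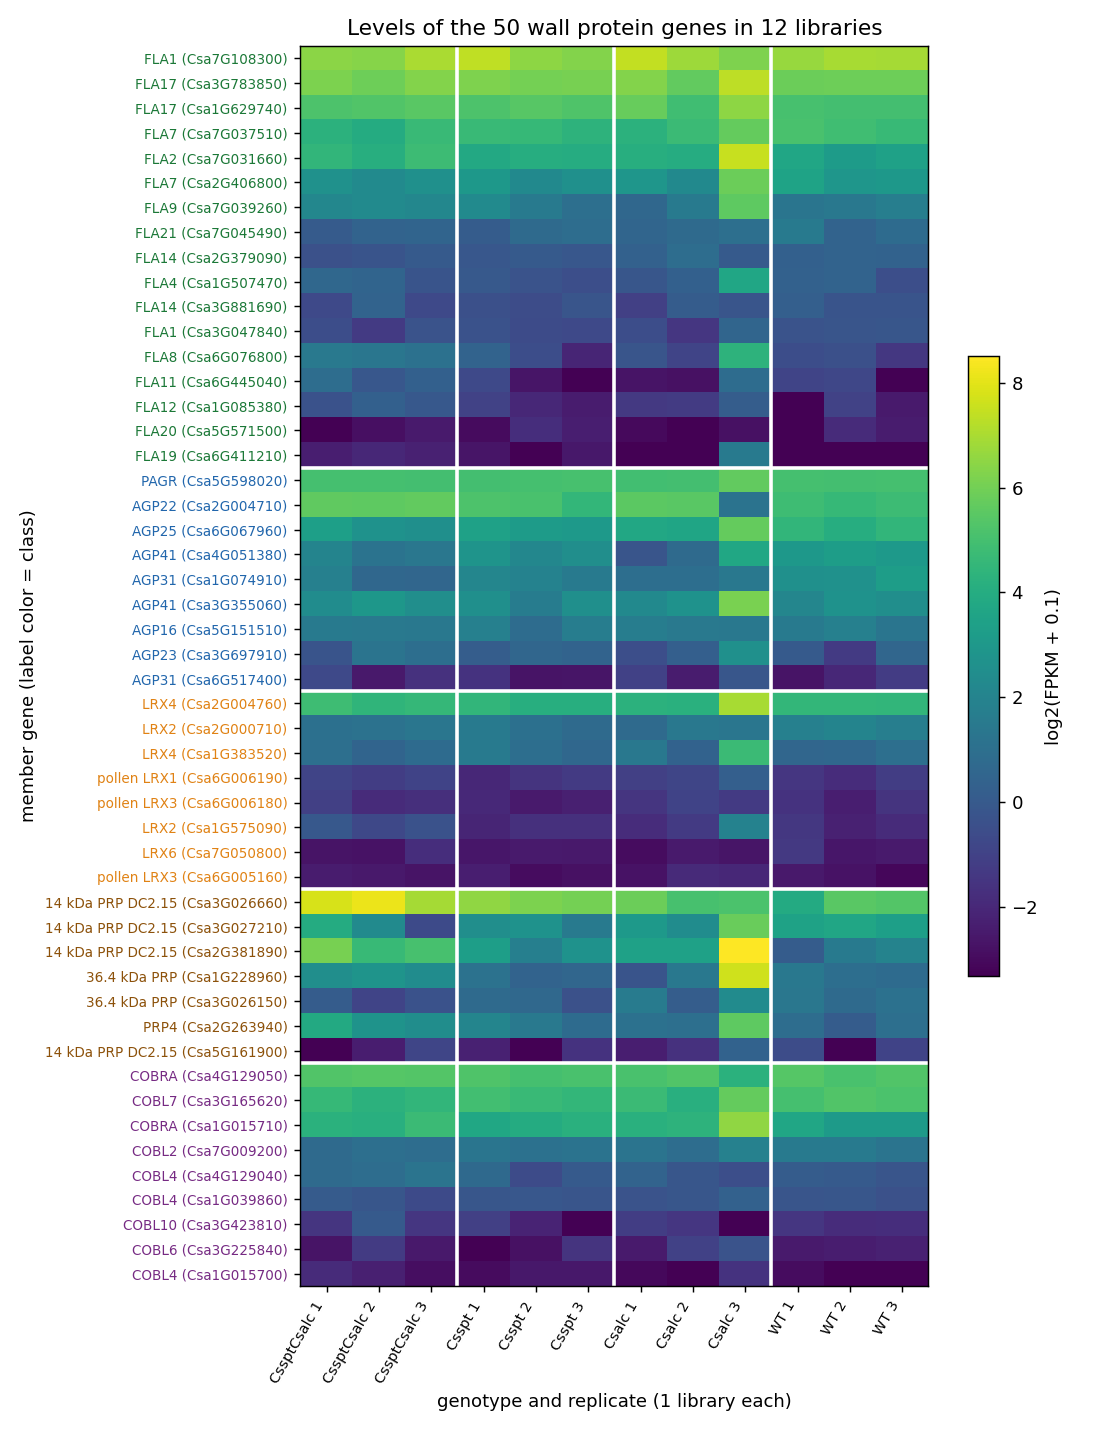
Level of each of the 50 members (rows, label color by class) in each of the 12 libraries (columns, mutants left of WT), as log2(FPKM + 0.1). Rows are ordered by WT level within each class; AGP22 (Csa2G004710) is dark and many other members are bright in Csalc replicate 3.

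Members named for pollen or pollen tubes had low levels in this tissue at anthesis. The pollen-specific LRX genes Csa6G006190, Csa6G006180 and Csa6G005160 averaged 0.399, 0.248 and 0.0723 FPKM in CssptCsalc and 0.263, 0.192 and 0.0473 FPKM in WT. COBRA-like 10 (Csa3G423810), needed for directed pollen tube growth in Arabidopsis, averaged 0.479 ± 0.380 FPKM in CssptCsalc and 0.215 ± 0.0451 FPKM in WT. Of the 8 LRX genes, LRX4 (Csa2G004760) was the highest at 22.5 ± 0.323 FPKM in WT, and none of the other 7 averaged above 3.56 FPKM there.

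In the double mutant the set's summed level was higher than in WT, and the proline-rich class made most of the difference. Most of that came from a single gene, DC2.15 (Csa3G026660). By edgeR without Csalc replicate 3, 4 genes of the class were called as risen and 1 as fallen, with levels given below. Summed over all 50 members, the level was 814, 772 and 719 FPKM in CssptCsalc, 666, 529 and 494 in Csspt, 650, 506 and 1949 in Csalc, and 524, 550 and 550 in WT. The 3 CssptCsalc libraries lay above the 3 WT libraries. The proline-rich class summed to 328, 328 and 168 FPKM in CssptCsalc, 115, 87.0 and 78.2 in Csspt, 81.6, 55.8 and 709 in Csalc, and 34.4, 65.1 and 60.7 in WT. All CssptCsalc and Csspt libraries were above all WT libraries in this class, and Csalc replicate 3 was above every library. In Csspt, too, most of the sum was DC2.15 (Csa3G026660). No gene of the class was called by edgeR in Csspt against WT, and the class median log2 fold change was -0.42 without Csalc replicate 3. FLA genes summed to 271 ± 48.4 FPKM in CssptCsalc and 266 ± 3.75 in WT (SD, n = 3 each here and in the next 3 sums). AGP genes summed to 104.2 ± 3.095 FPKM in CssptCsalc and 104.1 ± 5.33 in WT, LRX genes to 29.6 ± 4.03 in CssptCsalc and 28.5 ± 0.284 in WT, and COBRA genes to 88.7 ± 5.55 in CssptCsalc and 89.2 ± 3.17 in WT. Each of these differences was smaller than the SD in CssptCsalc, while those of the FLA and LRX sums were larger than the SD in WT. In these bulk samples, fewer cells of a type and less RNA per cell cannot be told apart.

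In CssptCsalc against WT, 9 members rose and 10 fell among the 46 tested without Csalc replicate 3 (quasi-likelihood test of edgeR, p-values adjusted over all genes by Benjamini-Hochberg, threshold 0.05). That is 41.3% of the tested members, beside 36.1% of all genes tested. With 12 libraries, 1 rose and 1 fell among 45 tested, or 4.44%, beside 7.18% of all genes. Called by position alone, 27 of the 45 members did not overlap between the 3 CssptCsalc and the 3 WT libraries in TMM-scaled CPM (counts per library total, with edgeR's scaling factors), 14 higher and 13 lower, which is 60% beside 51.7% of all genes. The share of members called was thus close to that of all genes, and their median log2 fold change was 0.03 without Csalc replicate 3, the same as the 0.03 of all genes tested. By class, without Csalc replicate 3, 4 of 7 tested proline-rich genes rose and 1 fell (71.4% called), and 1 of 9 AGP genes rose and 3 fell (44.4%). Of 15 FLA genes, 2 rose and 3 fell (33.3%), and of 7 LRX genes, 1 rose and 1 fell (28.6%). Of 8 COBRA genes, 1 rose and 2 fell (37.5%). These shares stand beside 36.1% of all genes, of which 19.2% rose and 16.8% fell. The 4 members that were tested in neither fit (Csa6G005160, Csa1G015700, Csa5G571500 and Csa6G411210) did not pass the filter on low counts. Of the 134 counts of Csa6G411210, 111 were in Csalc replicate 3.

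**Figure D2:**
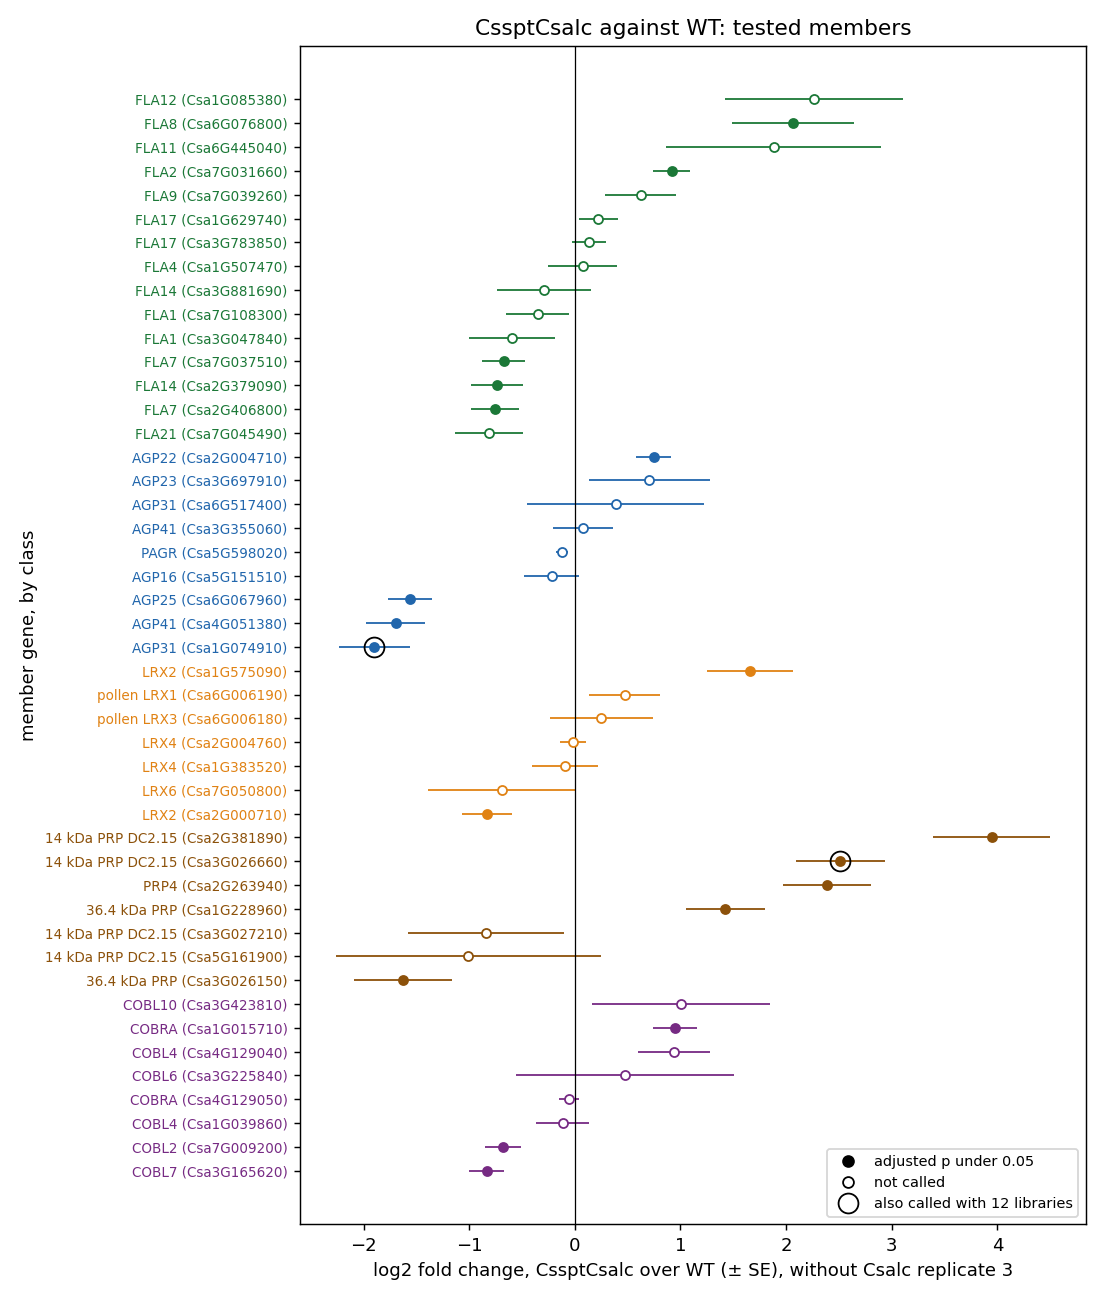
Log2 fold change of CssptCsalc over WT (x axis, ± SE) for each tested member (rows, color by class), from the fit without Csalc replicate 3; filled points have an adjusted p under 0.05 and ringed points also had it with 12 libraries. DC2.15 (Csa3G026660) and AGP31 (Csa1G074910) are the 2 ringed points, and the proline-rich class holds the highest fold change, 3.95 for DC2.15 (Csa2G381890).

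Among members that rose, the largest fold changes were in the proline-rich class. DC2.15, a hybrid proline-rich protein, is named for a carrot gene. DC2.15 (Csa3G026660) had 223, 284 and 122 FPKM in CssptCsalc, 92.0, 71.7 and 65.2 in Csspt, 57.0, 33.9 and 36.1 in Csalc, and 14.95, 45.1 and 40.8 in WT. Every CssptCsalc library was above every other library, and every Csspt library was above every Csalc and WT library. Its log2 fold change in CssptCsalc against WT was 2.52 ± 0.46 (SE; edgeR adjusted p = 0.0108) with 12 libraries and 2.51 ± 0.42 (adjusted p = 0.00150) without Csalc replicate 3. With this level it was the most abundant member in CssptCsalc, with 210 ± 81.8 FPKM there and 33.6 ± 16.3 FPKM in WT (SD, n = 3 each). Against Csspt its log2 fold change was 1.40 ± 0.41 (adjusted p = 0.0443), and against Csalc 2.11 ± 0.48 (adjusted p = 0.0226), both without Csalc replicate 3. With 12 libraries these were 1.41 ± 0.44 (adjusted p = 0.216) and 2.31 ± 0.45 (adjusted p = 0.0506), and neither was called.

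A second gene of the same name, DC2.15 (Csa2G381890), had a larger fold change from a lower base. It had 68.3, 24.9 and 33.9 FPKM in CssptCsalc, 9.82, 3.37 and 6.34 in Csspt, 10.8, 10.96 and 364 in Csalc, and 0.976, 2.77 and 3.78 in WT. The CssptCsalc libraries were above all Csspt and WT libraries, and Csalc replicate 3 was above them all. Against WT, the log2 fold change of this gene was 3.95 ± 0.55 (edgeR adjusted p = 5.62e-04) without Csalc replicate 3 and 3.95 ± 1.23 (adjusted p = 0.0816) with it. The other genes named DC2.15 did not pass. Csa3G027210 had 15.4, 4.93 and 0.529 FPKM in CssptCsalc and 11.04, 12.7 and 10.1 in WT, which overlap (log2 fold change -0.84 ± 0.74, adjusted p = 0.404 without Csalc replicate 3). Csa5G161900 had at most 0.453 FPKM in CssptCsalc and 0.581 in WT. The DC2.15 name is carried by 4 of the 7 proline-rich members, and whether reads were shared between such copies was not measured.

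PRP4 (Csa2G263940), which shares its name with an Arabidopsis proline-rich wall protein, had 14.5, 6.76 and 5.56 FPKM in CssptCsalc, 4.04, 2.63 and 1.66 in Csspt, 2.06, 1.89 and 47.3 in Csalc, and 1.77, 0.988 and 1.90 in WT. CssptCsalc lay above Csspt and WT without overlap. Its log2 fold change against WT was 2.38 ± 0.42 (edgeR adjusted p = 0.00180) without Csalc replicate 3 and 2.39 ± 1.01 (adjusted p = 0.181) with it. The 2 genes named for the 36.4 kDa proline-rich protein of tomato went opposite ways. Csa1G228960, named here after its values were seen, had 5.58, 6.96 and 5.22 FPKM in CssptCsalc and 2.60, 1.83 and 1.66 in WT, and rose by a log2 fold change of 1.42 ± 0.37 (adjusted p = 0.0136) without Csalc replicate 3. That call was lost when WT replicate 3 was left out as well. Csa3G026150 had 0.983, 0.440 and 0.692 FPKM in CssptCsalc and 2.45, 1.60 and 2.01 in WT. It fell by a log2 fold change of -1.63 ± 0.46 (adjusted p = 0.0203), a call lost without CssptCsalc replicate 2 or 3 or without WT replicate 1.

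**Figure D3:**
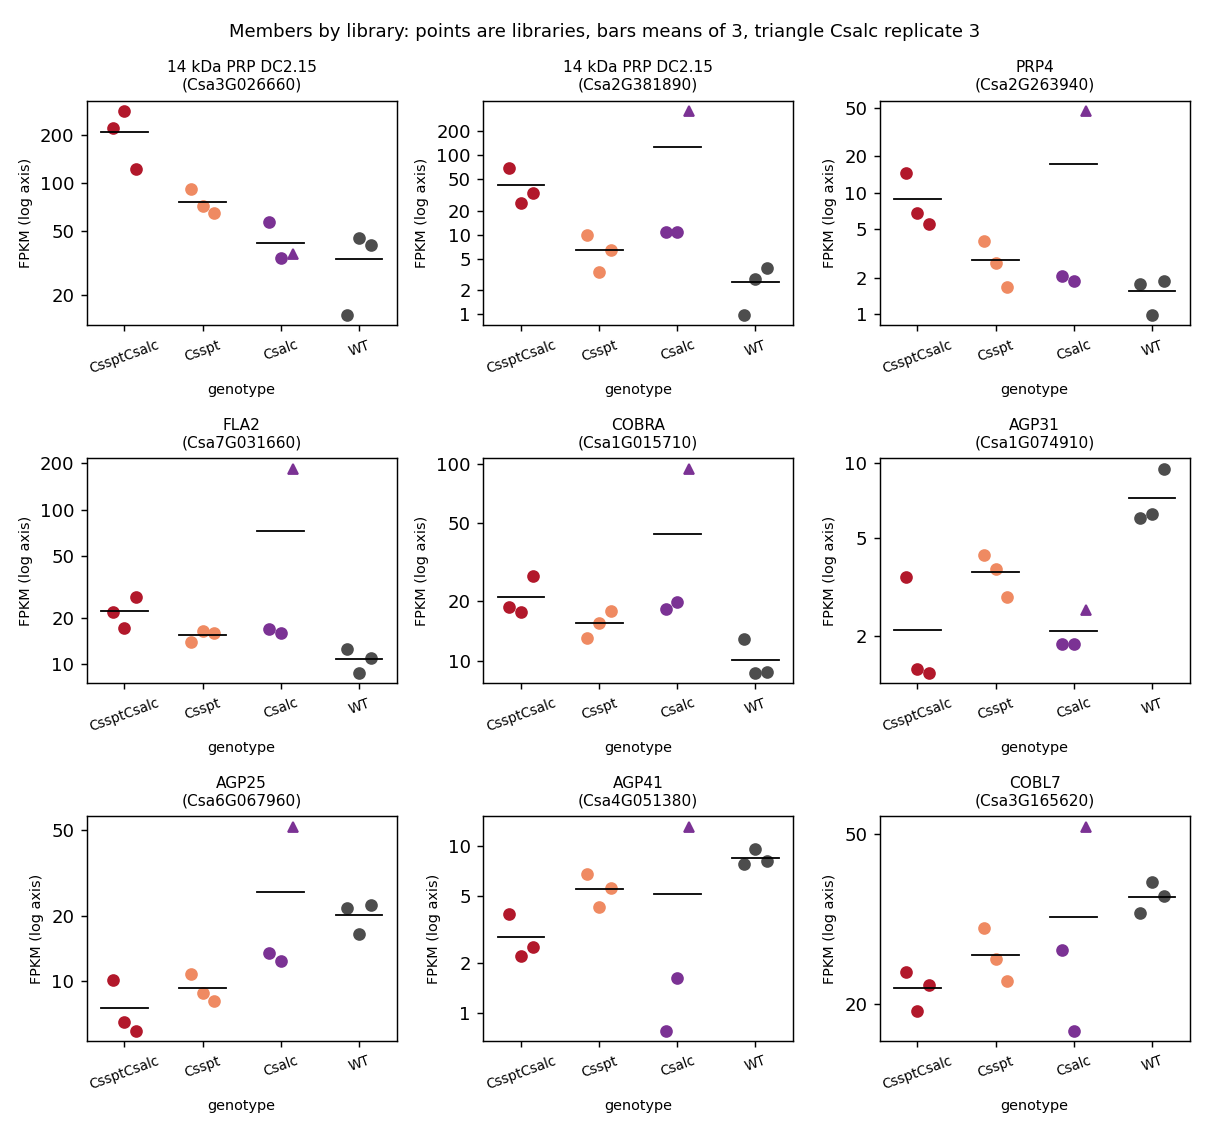
FPKM on log axes of 9 members in each library, by genotype; points are libraries, bars are means of 3, and the triangle is Csalc replicate 3. The top row and the first 2 panels of the middle row show members that rose in CssptCsalc against WT and the other 4 panels show members that fell; Csalc replicate 3 is above the other 11 libraries in 7 of the 9 panels, all but DC2.15 (Csa3G026660) and AGP31 (Csa1G074910).

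Among the 9 AGP genes, 3 fell and 1 rose in the double mutant without Csalc replicate 3, or 44.4% beside 36.1% of all genes. AGP31 (Csa1G074910), a non-classical AGP with an Ole e 1 domain, had 3.47, 1.47 and 1.42 FPKM in CssptCsalc, 4.26, 3.73 and 2.87 in Csspt, 1.86, 1.87 and 2.55 in Csalc, and 5.99, 6.23 and 9.48 in WT. All 9 mutant libraries were below all 3 WT libraries. Its log2 fold change in CssptCsalc against WT was -1.90 ± 0.35 (edgeR adjusted p = 0.0119) with 12 libraries and -1.90 ± 0.34 (adjusted p = 0.00192) without Csalc replicate 3. The call with 12 libraries was lost without CssptCsalc replicate 2 (-1.70, adjusted p = 0.0512) and without WT replicate 3 (-1.64, adjusted p = 0.0552). A second gene named AGP31 (Csa6G517400) stayed below 0.81 FPKM in every library.

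AGP25 (Csa6G067960), a classical AGP, had 10.03, 6.42 and 5.87 FPKM in CssptCsalc, 10.8, 8.81 and 8.09 in Csspt, 13.4, 12.3 and 51.6 in Csalc, and 21.8, 16.5 and 22.3 in WT. Apart from Csalc replicate 3, every mutant library was below every WT library. In CssptCsalc against WT the log2 fold change was -1.56 ± 0.21 (edgeR adjusted p = 4.77e-04) without Csalc replicate 3 and -1.55 ± 0.42 (adjusted p = 0.0517) with it. AGP41 (Csa4G051380), an arabinogalactan peptide, had 3.89, 2.19 and 2.47 FPKM in CssptCsalc, 6.78, 4.32 and 5.60 in Csspt, 0.779, 1.61 and 13.1 in Csalc, and 7.77, 9.59 and 8.12 in WT. CssptCsalc and Csspt were each below WT, with CssptCsalc the lower, and Csalc held both the lowest libraries and the highest one. The fold change in CssptCsalc against WT was -1.70 ± 0.28 on the log2 scale (adjusted p = 0.00135) without Csalc replicate 3 and -1.69 ± 0.73 (adjusted p = 0.187) with it. Another gene named AGP41 (Csa3G355060) was not called, at 0.08 ± 0.28 (edgeR adjusted p = 0.850) without Csalc replicate 3.

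AGP22 (Csa2G004710), another arabinogalactan peptide and the highest AGP in CssptCsalc, went the other way. It had 48.6, 47.2 and 50.9 FPKM in CssptCsalc, 37.1, 34.8 and 23.1 in Csspt, 46.4, 44.4 and 2.19 in Csalc, and 28.4, 24.5 and 27.5 in WT. The 3 CssptCsalc libraries were above all others, and Csalc split into a pair of high libraries and replicate 3, the lowest of the 12. Against WT, the log2 fold change in CssptCsalc was 0.75 ± 0.16 (edgeR adjusted p = 0.00582) without that library and 0.76 ± 0.76 (adjusted p = 0.579) with it. PAGR had 32.5, 32.8 and 31.1 FPKM in CssptCsalc and 32.7, 31.5 and 32.2 in WT. These overlap, with a log2 fold change of -0.12 ± 0.06 (adjusted p = 0.130) without Csalc replicate 3.

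The fasciclin-like proteins, AGPs with cell adhesion domains, changed in both directions, as did all genes. Of 15 tested, 2 rose and 3 fell without Csalc replicate 3, or 33.3% beside 36.1% of all genes. FLA2 (Csa7G031660) had 21.8, 17.1 and 27.1 FPKM in CssptCsalc, 13.9, 16.3 and 15.8 in Csspt, 16.9, 15.8 and 184 in Csalc, and 12.6, 8.77 and 10.9 in WT. Every mutant library was above every WT library, and the fold change in CssptCsalc was 0.92 ± 0.18 (log2; edgeR adjusted p = 0.00295) without Csalc replicate 3 and 0.92 ± 0.69 (adjusted p = 0.449) with it. FLA8 (Csa6G076800) had 2.68, 2.37 and 2.05 FPKM in CssptCsalc and 0.592, 0.650 and 0.273 in WT, with no overlap. The log2 fold change of 2.07 ± 0.58 (adjusted p = 0.0189) passed without Csalc replicate 3 and was lost when WT replicate 3 was left out too.

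The genes that fell were FLA7 (Csa2G406800), FLA7 (Csa7G037510) and FLA14 (Csa2G379090), the last named for a pollen protein of Arabidopsis and the only FLA member with no fasciclin domain listed. They had 5.71 ± 0.663, 20.1 ± 5.15 and 0.778 ± 0.143 FPKM in CssptCsalc and 8.91 ± 2.42, 29.6 ± 4.83 and 1.20 ± 0.0523 FPKM in WT, in that order (SD, n = 3 each). The libraries of Csa7G037510 overlapped between the genotypes, and those of the other two did not. Log2 fold changes were -0.76 ± 0.23, -0.67 ± 0.20 and -0.74 ± 0.25 without Csalc replicate 3 (edgeR adjusted p = 0.0260, 0.0268 and 0.0392). None of the 3 passed with 12 libraries (adjusted p = 0.519, 0.174 and 0.217). Each was lost in further fits that left out 1 more library: Csa2G406800 without CssptCsalc replicate 2 or 3 or WT replicate 1, Csa7G037510 without CssptCsalc replicate 1 or 2 or WT replicate 1 or 2, and Csa2G379090 without CssptCsalc replicate 1 or 2, Csspt replicate 2 or 3, or any WT replicate.

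The most abundant FLA genes did not pass. FLA1 (Csa7G108300) had 87.2, 80.9 and 128 FPKM in CssptCsalc, 165, 90.2 and 78.5 in Csspt, 174, 108 and 75.7 in Csalc, and 104, 124 and 121 in WT. The 4 genotypes overlapped, with the widest spread in the single mutants, and the log2 fold change in CssptCsalc was -0.35 ± 0.30 (edgeR adjusted p = 0.380) without Csalc replicate 3. FLA17 (Csa3G783850) and FLA17 (Csa1G629740) had log2 fold changes of 0.13 ± 0.16 and 0.22 ± 0.18 (adjusted p = 0.556 and 0.375). FLA11 (Csa6G445040) and FLA12 (Csa1G085380), whose Arabidopsis namesakes act in secondary walls of the stem, averaged 1.24 ± 0.473 and 0.895 ± 0.220 FPKM in CssptCsalc and 0.303 ± 0.263 and 0.160 ± 0.212 FPKM in WT. Neither passed: their log2 fold changes were 1.88 ± 1.02 and 2.26 ± 0.84 (adjusted p = 0.175 and 0.0579) without Csalc replicate 3.

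Of the LRX genes, the 2 named for LRX2, which acts in root hair walls of Arabidopsis, went opposite ways. Their NR name is LRX4 for both. LRX2 (Csa1G575090) had 0.867, 0.501 and 0.694 FPKM in CssptCsalc, 0.134, 0.216 and 0.212 in Csspt, 0.180, 0.308 and 3.68 in Csalc, and 0.280, 0.113 and 0.177 in WT. CssptCsalc was above Csspt and WT without overlap, and the log2 fold change against WT was 1.66 ± 0.41 (edgeR adjusted p = 0.0103) without Csalc replicate 3 and 1.67 ± 0.87 (adjusted p = 0.276) with it. LRX2 (Csa2G000710) had 1.97, 2.11 and 2.43 FPKM in CssptCsalc, 2.86, 1.94 and 1.63 in Csspt, 1.63, 2.53 and 2.39 in Csalc, and 3.44, 3.97 and 3.27 in WT. All 9 mutant libraries were below WT, and the log2 fold change in CssptCsalc was -0.83 ± 0.24 (adjusted p = 0.0199) without Csalc replicate 3 and -0.82 ± 0.25 (adjusted p = 0.0794) with it. This call was lost when CssptCsalc replicate 1 or 2 or WT replicate 2 was left out as well. LRX4 (Csa2G004760), the most abundant LRX, had 28.3, 21.4 and 23.2 FPKM in CssptCsalc and 22.4, 22.9 and 22.3 in WT, which overlap (log2 fold change -0.01 ± 0.12, adjusted p = 0.943).

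In the COBRA class, 1 gene rose and 2 fell in the double mutant, and the summed levels overlapped. That is 37.5% of the 8 tested without Csalc replicate 3, close to the 36.1% of all genes. COBRA (Csa1G015710) had 18.6, 17.7 and 27.0 FPKM in CssptCsalc, 13.1, 15.6 and 17.9 in Csspt, 18.2, 19.8 and 94.4 in Csalc, and 12.9, 8.65 and 8.72 in WT. Every mutant library was above WT, with the fold change in CssptCsalc at 0.95 ± 0.20 (log2; edgeR adjusted p = 0.00543) without Csalc replicate 3 and 0.96 ± 0.47 (adjusted p = 0.246) with it. COBRA-like 7 (Csa3G165620) had 23.9, 19.3 and 22.2 FPKM in CssptCsalc, 30.2, 25.5 and 22.6 in Csspt, 26.8, 17.3 and 52.2 in Csalc, and 32.7, 38.7 and 35.9 in WT. The CssptCsalc and Csspt libraries were all below WT, and the fold change in CssptCsalc was -0.84 ± 0.17 (adjusted p = 0.00361) without Csalc replicate 3 and -0.83 ± 0.25 (adjusted p = 0.0781) with it. COBRA-like 2 (Csa7G009200), which acts in seed coat cellulose in Arabidopsis, averaged 1.76 ± 0.159 FPKM in CssptCsalc and 2.60 ± 0.332 FPKM in WT (-0.68 ± 0.17, adjusted p = 0.0124 without Csalc replicate 3). COBRA (Csa4G129050), the most abundant of the class, had 38.8, 42.2 and 40.9 FPKM in CssptCsalc and 42.3, 34.8 and 39.4 in WT. Its fold change of -0.05 ± 0.10 (adjusted p = 0.697) was within that spread. COBRA-like 4 (Csa4G129040), whose namesake works in secondary wall cellulose, had 1.59, 1.76 and 2.26 FPKM in CssptCsalc and 0.999, 0.915 and 0.775 in WT. These do not overlap, yet the test did not pass (0.94 ± 0.34, adjusted p = 0.0529 without Csalc replicate 3).

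In Csspt against WT no member was called with 12 libraries. edgeR gave 4 members an unadjusted p under 0.05, DESeq2 called 0, and edgeR called 0.0584% of all genes. Without Csalc replicate 3, 1 of 46 members fell and none rose, or 2.17%, beside 4.72% of all genes. That gene was AGP25 (Csa6G067960), whose Csspt and WT libraries are given above, with a log2 fold change of -1.20 ± 0.21 (edgeR adjusted p = 0.0147). In TMM-scaled CPM, 17 of 45 members did not overlap between Csspt and WT, 4 higher and 13 lower, which is 37.8% beside 30.7% of all genes. The median log2 fold change of the members was -0.28 without Csalc replicate 3, against 0.01 over all genes tested.

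In Csalc against WT the calls were confined to the AGP class in the fits with 12 libraries and without Csalc replicate 3. AGP31 (Csa1G074910) fell with all 12 libraries, by a log2 fold change of -1.96 ± 0.35 (edgeR adjusted p = 0.0373), and was 1 of 45 members called, or 2.22%, beside 0.785% of all genes. Without Csalc replicate 3, 1 member rose and 2 fell among 46, or 6.52%, beside 4.36% of all genes. These were AGP41 (Csa4G051380) at -2.84 ± 0.35 (adjusted p = 0.00300), AGP31 at -1.99 ± 0.39 (adjusted p = 0.0209) and AGP22 (Csa2G004710) at 0.73 ± 0.18 (adjusted p = 0.0492). With 12 libraries AGP41 was at -1.05 ± 0.71 (adjusted p = 0.374) and AGP22 at 0.17 ± 0.76 (adjusted p = 0.899), so that both calls were lost. AGP41 had 0.779 and 1.61 FPKM in Csalc replicates 1 and 2, below all 3 CssptCsalc libraries. The AGP31 call with 12 libraries was lost in most fits that left out a library: without CssptCsalc replicate 2, any Csspt replicate, Csalc replicate 2 or any WT replicate, its adjusted p ran between 0.0511 and 0.164 at log2 fold changes of -1.71 to -2.08. In TMM-scaled CPM 6 of 45 members did not overlap between Csalc and WT, 4 higher and 2 lower, which is 13.3% beside 25.7% of all genes.

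Set against the single mutants, CssptCsalc had members called by edgeR without Csalc replicate 3 and none with 12 libraries. With 12 libraries no member was called against Csspt, where 3 members had an unadjusted edgeR p under 0.05, DESeq2 called 1, and edgeR called 0.361% of all genes. Without Csalc replicate 3, 6 members rose and 1 fell among 46, or 15.2%, beside 14.4% of all genes. The risers were DC2.15 (Csa2G381890) at 2.64 ± 0.51, the 36.4 kDa protein (Csa1G228960) at 1.85 ± 0.38, LRX2 (Csa1G575090) at 1.72 ± 0.41, PRP4 (Csa2G263940) at 1.62 ± 0.40, DC2.15 (Csa3G026660) at 1.40 ± 0.41 and AGP22 (Csa2G004710) at 0.57 ± 0.16 on the log2 scale. AGP41 (Csa4G051380) fell at -1.02 ± 0.28 (edgeR adjusted p = 0.0363). All 7 had the same direction with 12 libraries, at adjusted p values of 0.216 to 0.829.

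Against Csalc, no member was called with 12 libraries, 9 had an unadjusted edgeR p under 0.05, DESeq2 called 4, and edgeR called 0.711% of all genes. Without Csalc replicate 3, 3 rose and 2 fell, or 10.9% beside 11.2% of all genes: DC2.15 (Csa3G026660) at 2.11 ± 0.48, PRP4 (Csa2G263940) at 2.07 ± 0.48 and Csa1G228960 at 1.75 ± 0.44 rose, and AGP25 (Csa6G067960) at -0.89 ± 0.23 and FLA14 (Csa2G379090) at -1.01 ± 0.27 fell. With 12 libraries the sign turned for 2 of these 5 genes: PRP4 was at -0.69 ± 0.96 (edgeR adjusted p = 0.793) and Csa1G228960 at -3.22 ± 1.41 (adjusted p = 0.349). The median log2 fold change of the 7 proline-rich genes turned as well, at 1.75 without Csalc replicate 3 and -1.34 with it. The direction of the proline-rich class against Csalc thus rests on whether this 1 library is used. DC2.15 at 2.31 ± 0.45, AGP25 at -1.64 ± 0.42 and FLA14 at -0.73 ± 0.33 kept their direction with 12 libraries and were not called (adjusted p = 0.0506, 0.114 and 0.372). These comparisons share libraries with those against WT, and the genes listed here beyond the naming rule were chosen after their values were seen.

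Csalc replicate 3 was the highest library for most of the members. In FPKM it was the highest of the 12 for 30 of 45 members (66.7%), beside 46.7% of all genes, and the lowest for 3 members (6.67%), beside 23.8% of all genes. The widest gap was in the 36.4 kDa proline-rich protein (Csa1G228960), at 200 FPKM in this library and at most 6.96 FPKM in the other 11, a ratio of 28.7. FLA19 (Csa6G411210) had 2.87 FPKM against at most 0.149, a ratio of 19.3 between low levels. It reached the minimum of 30 counts only through this library, so its high place here follows from the rule of the set. LRX4 (Csa1G383520), FLA9 (Csa7G039260), AGP41 (Csa3G355060) and FLA4 (Csa1G507470) were 9.59, 9.36, 9.16 and 8.64 times their highest other library. AGP22 (Csa2G004710) was the opposite case, at 2.19 FPKM against 23.1 to 50.9 in the other 11.

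**Figure D4:**
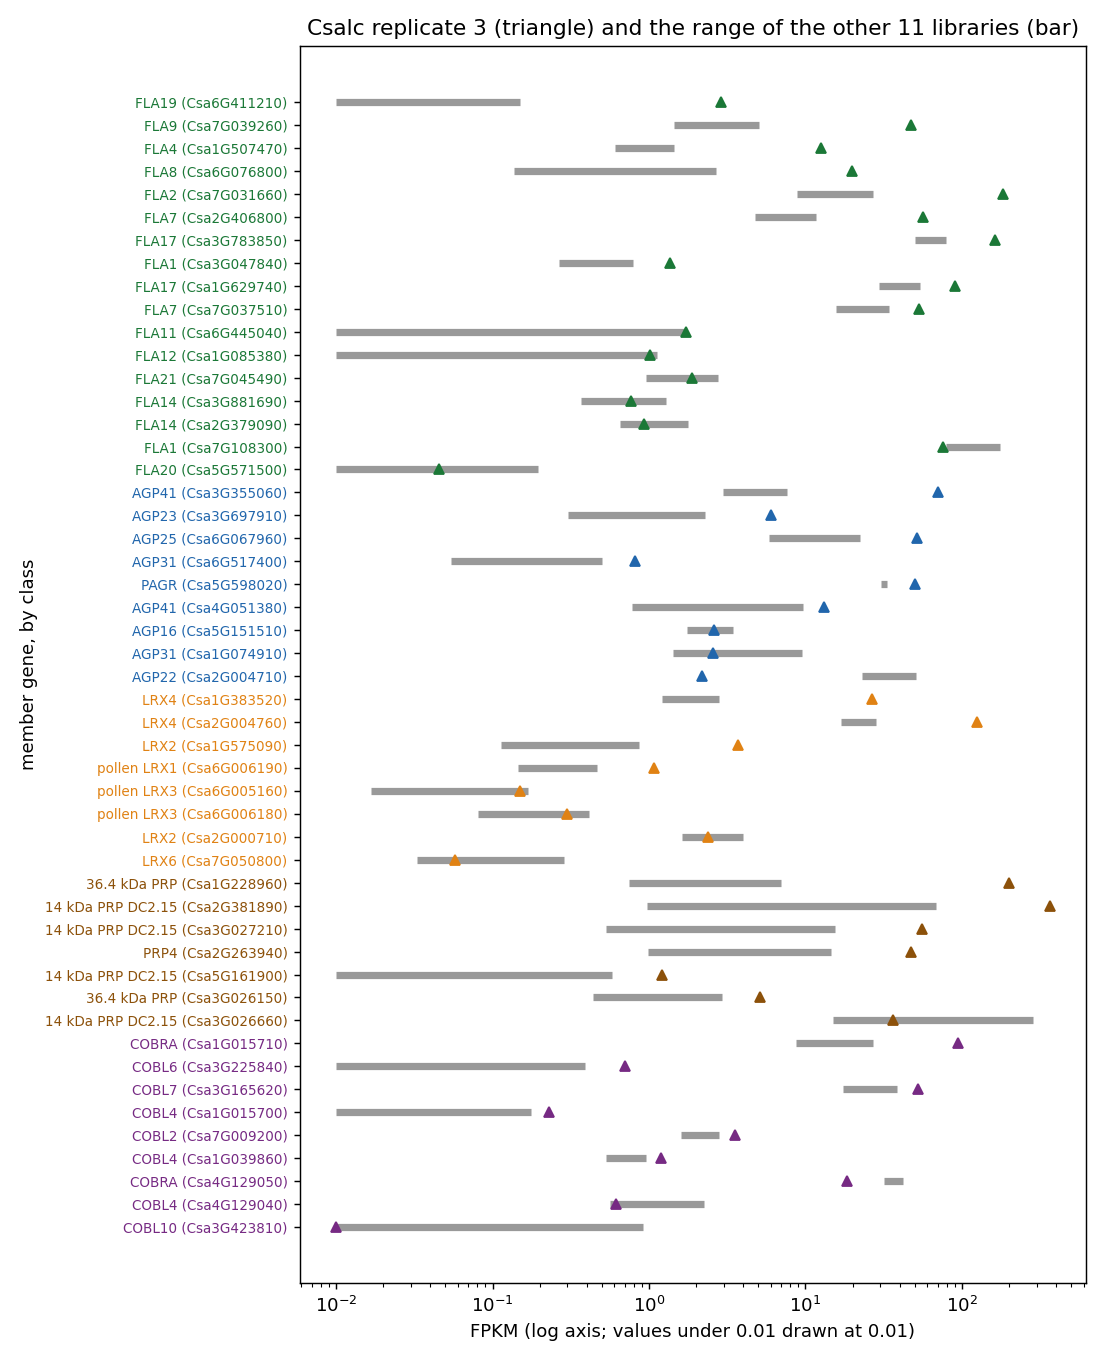
FPKM (log x axis, values under 0.01 drawn at 0.01) of each of the 50 members in Csalc replicate 3 (triangle) and the range over the other 11 libraries (bar), by class. Most triangles lie right of their bar, the 36.4 kDa proline-rich protein (Csa1G228960) by 28.7 times its upper end, while AGP22 (Csa2G004710) lies left of its bar.

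Genes that modify or partner these proteins were read from lists of protein names, members of the set left out. Each list's share of called genes in CssptCsalc against WT is set beside the share over all genes, which was 7.18% with 12 libraries and 36.1% without Csalc replicate 3. RALF peptides, the ligands that LRX proteins bind in Arabidopsis pollen tubes, included 2 genes with large falls. RALF-like 4 (Csa6G484570) had 349, 329 and 404 FPKM in CssptCsalc, 1403, 1469 and 1318 in Csspt, 1021, 795 and 458 in Csalc, and 2307, 2253 and 2178 in WT. Its second copy by name (Csa6G199790) had 11.9, 19.9 and 33.8 FPKM in CssptCsalc, 225, 181 and 224 in Csspt, 95.8, 137 and 5.76 in Csalc, and 425, 440 and 406 in WT. For both genes all mutant libraries were below WT and all CssptCsalc libraries were below all Csspt libraries. Log2 fold changes in CssptCsalc against WT were -2.75 ± 0.33 and -4.37 ± 0.93 (edgeR adjusted p = 0.00168 and 0.0210) with 12 libraries. Of 8 RALF genes tested, these 2 fell and none rose with 12 libraries, or 25%, and without Csalc replicate 3, 2 fell and 1 rose, or 37.5%, close to the 36.1% of all genes. The median log2 fold change over the 8 was -0.10, beside 0.03 over all genes, both with 12 libraries. LLG1 (Csa7G186190), named for a GPI-anchored co-receptor of RALF peptides, had 17.1, 16.6 and 18.1 FPKM in CssptCsalc and 26.1, 30.03 and 28.4 in WT, and fell by -0.82 ± 0.13 (adjusted p = 0.00717) with 12 libraries.

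**Figure D5:**
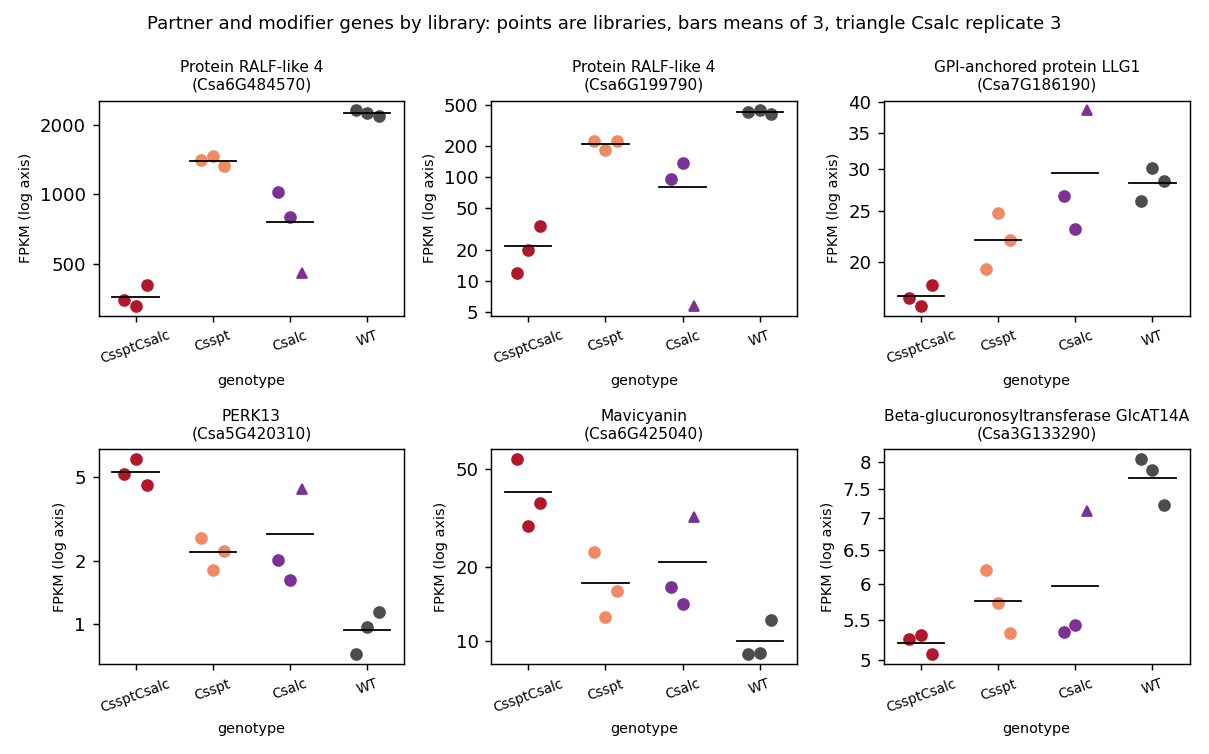
FPKM on log axes of 6 partner or modifier genes in each library, by genotype; points are libraries, bars are means of 3, and the triangle is Csalc replicate 3. The 2 RALF-like 4 genes, LLG1 and GlcAT14A (Csa3G133290) are lower in all CssptCsalc libraries than in all WT libraries, and PERK13 and mavicyanin are higher.

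Enzymes on the list for arabinogalactan chains were called at about the rate of all genes. With 12 libraries, 1 rose and 5 fell of the 61 tested in CssptCsalc against WT, or 9.84% beside 7.18%. Without Csalc replicate 3, 6 rose and 13 fell, or 31.1% beside 36.1%, with a median log2 fold change of -0.13 beside 0.03 for all genes. Among those that fell were the beta-glucuronosyltransferases GlcAT14A (Csa3G133290) and GlcAT14A (Csa3G105970), which add glucuronic acid to arabinogalactan, at -0.68 ± 0.12 and -0.46 ± 0.10 (edgeR adjusted p = 0.00935 and 0.0249 with 12 libraries). Csa3G133290 had 5.26, 5.32 and 5.07 FPKM in CssptCsalc and 8.06, 7.85 and 7.23 in WT, without overlap. A gene named beta-1,3-galactosyltransferase 2 (Csa2G418850) rose, with 11.5, 10.4 and 8.24 FPKM in CssptCsalc and 3.28, 3.48 and 3.72 in WT (1.41 ± 0.17, adjusted p = 0.00168). The list is broad: O-fucosyltransferase 28 (Csa3G732610) and O-fucosyltransferase 30 (Csa5G165220), among the 5 that fell, are named as O-fucosyltransferases alone. Of 8 prolyl 4-hydroxylases, which make the hydroxyproline that carries the chains, none was called with 12 libraries by edgeR, where 1 had an unadjusted p under 0.05 and DESeq2 called 0, and 1 rose and 2 fell without Csalc replicate 3, or 37.5% beside 36.1%. Of 6 extensin glycosylation genes, none was called with 12 libraries by edgeR, where 2 had an unadjusted p under 0.05 and DESeq2 called 1, and 2 rose and none fell without Csalc replicate 3, or 33.3% beside 36.1%.

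Proline-rich receptor kinases (PERK), which sense the wall, were called at about the rate of all genes, and early nodulin-like proteins are often GPI-anchored with AGP stretches. PERK13 (Csa5G420310) had 5.19, 6.11 and 4.60 FPKM in CssptCsalc, 2.57, 1.81 and 2.23 in Csspt, 2.03, 1.63 and 4.37 in Csalc, and 0.721, 0.966 and 1.14 in WT. All mutant libraries were above WT, and it rose by 2.37 ± 0.30 on the log2 scale (edgeR adjusted p = 0.00211 with 12 libraries), the single riser of 14 PERK genes tested, none of which fell, or 7.14% beside 7.18%. Of the PERK genes, 4 rose and 1 fell without Csalc replicate 3, or 35.7% beside 36.1%. Of 15 early nodulin-like or blue copper genes tested, 5 rose and none fell with 12 libraries, or 33.3% beside 7.18%. In the fit without Csalc replicate 3, 8 rose and 1 fell, or 60% beside 36.1%, with a median log2 fold change of 1.60 beside 0.03 for all genes. Mavicyanin (Csa6G425040) had 55.3, 29.5 and 36.7 FPKM in CssptCsalc and 8.87, 9.00 and 12.3 in WT, and early nodulin-like 3 (Csa3G078280) had 96.3, 54.5 and 55.6 in CssptCsalc and 5.36, 5.84 and 5.67 in WT. Of 16 genes named for GPI anchors, 2 rose and 1 fell with 12 libraries, or 18.8% beside 7.18%, and 6 rose and 3 fell without Csalc replicate 3, or 56.2% beside 36.1%. This list takes in GPI-anchored proteins beside the enzymes that make the anchor. The 1 that fell with 12 libraries was LLG1 (Csa7G186190), already described.

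Markers of other cell types moved beside these genes. Xylem and secondary wall markers summed to 23.8 to 33.5 FPKM in CssptCsalc, 15.2 to 23.4 in Csspt, 15.1 to 38.0 in Csalc and 18.0 to 19.2 in WT, with 2 of 11 tested risen and none fallen with 12 libraries, or 18.2% beside 7.18%, and 6 risen without Csalc replicate 3, or 54.5% beside 36.1%. Of 14 names matched, 1 Laccase-4 gene had no count in any library, and CESA7 (Csa2G070320), a secondary wall cellulose synthase, had 1.37, 0.983 and 1.31 FPKM in CssptCsalc and 0.197, 0.0576 and 0.111 in WT. Phloem markers summed to 164 to 218 FPKM in CssptCsalc, 144 to 160 in Csspt, 119 to 221 in Csalc and 115 to 143 in WT, with 2 of 12 risen with 12 libraries, or 16.7% beside 7.18%, and 6 risen and 1 fallen without Csalc replicate 3, or 58.3% beside 36.1%. Both sums were higher in every CssptCsalc library than in any WT library. So were the proline-rich sum, COBRA-like 4 (Csa4G129040), FLA11 (Csa6G445040) and FLA12 (Csa1G085380). None of these named genes was called by edgeR, with 12 libraries or without Csalc replicate 3. The other tested gene named COBRA-like 4 (Csa1G039860) did not rise (log2 fold change -0.11 ± 0.25, edgeR adjusted p = 0.752 without Csalc replicate 3). A further gene of that name (Csa1G015700) was above WT in every CssptCsalc library but too low to be tested. The proline-rich sum in CssptCsalc was mostly DC2.15 (Csa3G026660). The part of the markers in those results was not tested. Pollen markers summed to 493 to 518 FPKM in CssptCsalc, 490 to 512 in Csspt, 406 to 801 in Csalc and 436 to 488 in WT, again without overlap between CssptCsalc and WT, and nearly all of it came from 1 profilin gene (Csa2G000770) that many tissues express. Of the 6 pollen receptor-like kinases other than kinase 3 (Csa2G000010), none exceeded 4.56 FPKM in any library, and of the 8 pollen markers tested none was called with 12 libraries by edgeR, where 1 had an unadjusted p under 0.05 and DESeq2 called 1, and 1 fell without Csalc replicate 3, or 12.5% beside 36.1%. Of the carpel and style markers, 1 rose and 6 fell of 26 tested with 12 libraries, or 26.9% beside 7.18%, and 3 rose and 10 fell of 27 without Csalc replicate 3, or 48.1% beside 36.1%. This list goes by name, takes in SPATULA genes and any Agamous-like gene, and is no measure of the amount of carpel or style tissue.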

How the data were processed

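The authors deposited 1 table of read counts and FPKM values for 24345 genes, with protein annotation. The deposited counts are whole numbers, and the authors' FPKM values are scaled to length and depth, per the file headers. HISAT2, HISAT and DESeq2 were used, per the submitters' processing notes. Versions, build, annotation, counter and strand setting: not given in the sources used here, so reads of overlapping or near-identical genes may be shared. Columns headed DM were read as CssptCsalc. No ID matched the RefSeq table, so sequences and coordinates were not used here.

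Counts were tested with edgeR 4.0.16 (limma 3.58.1, R 4.3.3): filterByExpr with a minimum count of 10, TMM factors, glmQLFit and glmQLFTest on all 4 genotypes in 1 fit with no block, and Benjamini-Hochberg adjustment over all genes tested, at a threshold of 0.05. The SE given is the absolute log2 fold change over the square root of F. DESeq2 1.42.0, other scaling, no filter, fits of 2 groups, a replicate block and each library left out were alternatives; the fits without Csalc replicate 3 with further alternatives were added after the data were seen. Counts of members and genes that do not overlap use TMM-scaled CPM, and FPKM carries no TMM factor, so the 2 scales can differ. No label says what separates the biological replicates, so p-values measure the spread between these samples. Within each genotype, every pair of libraries differed beyond sampling noise, with chi-square over degrees of freedom of 14.1 or more, and none was merged.

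Members and lists were chosen with earlier results of these data known. Named members are, per class and direction, the called ones with the largest fold changes in CssptCsalc against WT (up to 4 with 12 libraries, up to 3 without Csalc replicate 3), those called in the other contrasts (up to 5 per direction with 12 libraries, up to 3 for Csspt and Csalc against WT without Csalc replicate 3), the 8 highest in WT and the highest of each class. Other members are named beyond this rule, after their values were seen. On counts simulated for CssptCsalc against WT, edgeR recovered 10%, 52%, 80% and 84% of 2-, 4-, 8- and 16-fold changes among 18671 genes with 12 libraries (6 of 119 calls false), and 58%, 88%, 100% and 94% among 18819 genes without Csalc replicate 3 (7 of 177 calls false).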

Additional observations from a re-analysis of the deposited data

How the results depend on the processing

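No member called in a contrast with WT or with Csspt had the other sign in the fit with 12 libraries or in that without Csalc replicate 3. In CssptCsalc against Csalc, PRP4 (Csa2G263940) and Csa1G228960 were called at 2.07 and 1.75 without Csalc replicate 3 and were at -0.69 and -3.22 with it. Counts of called members moved. For CssptCsalc against WT, 2 members were called with 12 libraries (4.44%, beside 7.18% of all genes). DESeq2 called 8, beside 2836 of all genes, and a fit of the 2 groups alone called 20, beside 6638. With 1 library left out, 1 to 19 were called: 1 without CssptCsalc replicate 2 or WT replicate 3, and 4 and 5 without Csalc replicate 1 and 2. The 19 were called without Csalc replicate 3 (41.3%, beside 36.1% of all genes). In the fit without Csalc replicate 3, 18 to 22 were called under other settings and 14 to 21 with 1 more library left out, and 14 to 19 of the 19 were among them. Shares over all genes are not given for these further fits, so their counts are no result about the members. For Csspt against WT, 0 were called, 3 in the fit of the 2 groups and 0 to 1 with 1 library left out. For Csalc against WT, 1 was called, 5 by DESeq2, 0 in the fit of the 2 groups and 0 to 5 with 1 library left out, the highest without Csalc replicate 1. For CssptCsalc against Csspt, 0 were called, 1 by DESeq2, 4 in the fit of the 2 groups and 0 to 7 with 1 library left out, and against Csalc 0, with 4 by DESeq2 and 0 to 5 with 1 library left out. Apart from Csalc replicate 3 as the library left out, the cause was not tested. Over all genes, edgeR called 1353, 11, 148, 68 and 134 in these contrasts in that order, DESeq2 2836, 298, 1476, 825 and 940, and the fits of 2 groups 6638, 1219, 2, 1645 and 0. With 1 library left out these were 433 to 6875, 0 to 900, 33 to 1271, 7 to 2748 and 5 to 2131. Without a filter, Csspt against WT had 4.

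The replicate numbers did not pair the samples: libraries of 1 number in different genotypes had correlated deviations of -0.25 to 0.21, over 0.1 in 2 of 18 pairs, and those of different numbers -0.39 to 0.32. With the number as a replicate block, 2 members were called in CssptCsalc against WT and 0 in Csspt, 0 in Csalc and 0 in each contrast with a single mutant, and all genes called were 922, 3, 75, 33 and 16. Members below 1 FPKM rest on few counts, so differences in them were often not detectable at this depth.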
